A study of Mus musculus with 3 samples.

Results

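Forkhead genes encode transcription factors that share the forkhead DNA-binding domain, and they are described here in ScxGFP-positive cells of the embryonic mouse hindlimb. The members are the gene symbols made of Fox, a subfamily letter from a to s and a number, which gave 44 of the 22072 genes in the tables, in 19 subfamilies and 52 transcript rows. Levels are given as FPKM, a read level divided by transcript length in kilobases and by library size, summed over the transcripts of a gene. The sort used a GFP reporter of Scx, the gene of scleraxis, which is a factor of tendon progenitors. Hindlimbs were pooled before sorting, 18 of them at embryonic day E11.5, with 12 used for E13.5 and 11 for E15.5, from mice of mixed strain background with no treatment named in the labels. Each pool gave 1 library, so differences between embryos were not measured, no test between stages was possible, and every difference below is one between 2 libraries. The reporter and the sort at 3 stages are common to all groups, and no unsorted or GFP-negative cells are among the samples.

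The forkhead domain is a winged-helix fold whose recognition helix lies in the major groove of DNA. Subfamilies differ in the rest of the protein: FoxP factors are mostly repressors that bind DNA as dimers with each other, FoxO factors are held out of the nucleus when insulin and growth factors activate AKT, FoxM1 drives genes of mitosis, and FoxC and FoxF factors act in mesenchyme. Many of the remaining factors are known from single organs, such as Foxn1 in the thymus or Foxl2 in the ovary.

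The stretch of 30 bases that codes for the core of the recognition helix is shown for 8 members, because it is the DNA-contacting part that defines the family. It was found by a pattern search in GENCODE M21 transcripts (build GRCm38) matched to the RefSeq transcripts of the tables. The search found it in 39 of the 44 members, and in 18 of the 19 that are described by value below. Capitals mark bases that differ from Foxp4.
Foxp4: tggaagaatgccgtgcgccacaacctcagc
Foxc1: tggCagaaCAGcAtAcgGcacaacctcTCG
Foxc2: tggCagaaCAGcAtCcgccacaacctGTCA
Foxo3: tggaagaaCTccAtCcgGcacaacctGTCc
Foxk1: tggCagaaCTcTAtCcgAcacaacctcTCT
Foxj3: tggaagaatTcTAtAcgAcaTaaTctGTCA
Foxn3: tggaagaaCTcAgtgAgAcacaacTtGTCA
Foxm1: tggaagaaCTcTAtTcgTcacaacctTTCT
Foxo3 differed from Foxp4 at 8 of the 30 bases and Foxj3 at 11, and the FoxC genes, each 10 away from Foxp4, differed from each other at 4. Similarity of the genes bears on whether reads can be assigned to them. Of all windows of 36 bases in the matched Foxp4 transcripts, 0 occurred in a transcript of another gene on either strand. The share was 0.498% for Foxp2, 4.97% for Foxp1, 0.413% for Foxc1, 0.892% for Foxc2 and 2.36% for Foxm1. It was higher for Foxn3, at 6.25%, and for Foxo1, at 7.57%. It was 65.8% for Foxq1, all of it shared with the annotated gene A530084C06Rik, so Foxq1 values are uncertain. The GENCODE match of Foxq1 is 4843 bases long, against 2805 in the tables, and that of Foxo1 is 8665, against 5552. Their shares may therefore differ for the measured rows.

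Depth and purity were checked once for the whole series. About 14400000, 12800000 and 17900000 reads were estimated on the listed transcripts in stage order, and each interval below is an approximate 95% Poisson interval for a level, or an exact binomial (Clopper-Pearson) one for a ratio, built on that estimate and covering counting error alone. Of 9 tendon markers, 5 were under 1 FPKM at E11.5 and 0 at the later stages, and Tnmd was listed at 0 at E11.5. Markers of other cell types were present at unequal levels. In stage order the summed FPKM was 158, 271 and 423 for 10 cartilage genes, 113, 192 and 217 for 9 fibroblast genes, and 14.9, 74.4 and 244 for 13 muscle genes. It ran from 2.76 to 15.9 over the stages for 12 endothelial genes, 1.76 to 2.79 for 10 leukocyte genes, 15.8 to 51.2 for 8 pericyte and smooth muscle genes, 4.37 to 28.8 for 8 Schwann cell and neural crest genes, 6.14 to 12.6 for 8 neuronal genes, 3.96 to 13.2 for 9 epidermal genes and 10.6 to 15.05 for 8 blood genes. Some sums rest on few genes. Tcf4 alone made 36.7, 44.3 and 41.9 FPKM of the fibroblast sums. In the Schwann cell and neural crest list, 6 of 8 genes were under 1 FPKM in each library. There Ngfr was at 1.62, 7.06 and 26.03 FPKM, while Sox10 (0.506, 0.413 and 0.322) and Egfl8 were lower at each later stage. In the neuronal list Nefl (0.168, 3.04 and 4.32), Nefm and Stmn2 were higher at each later stage. Isl1 (3.17, 2.498 and 1.32), Tubb3 and Snap25 were lower at each, and Elavl3 and Elavl4 changed direction. In sorted bulk samples, fewer cells of a type and less RNA per cell cannot be told apart.

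Of the 44 forkhead genes, 19 reached 1 FPKM in at least 1 library, 18 were above 0 but stayed under 1 FPKM, and 7 were listed at 0 in all 3 libraries. At least 1 FPKM was reached by 15 members at E11.5 and by 18 at each of E13.5 and E15.5. That is 34.1%, 40.9% and 40.9% of the family, against 47.0%, 49.7% and 50.4% of all genes in the tables. The 19 detected genes fell in 11 subfamilies, and all 44 members carried the authors' status OK in every library. No member exceeded 24.97 FPKM, so forkhead transcripts were of moderate level beside Scx at 375, 410 and 213 FPKM. The members nearest the limit of 1 FPKM were Foxq1, which reached 1.14, and Foxd1, which reached 0.697.

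**Figure D1:**
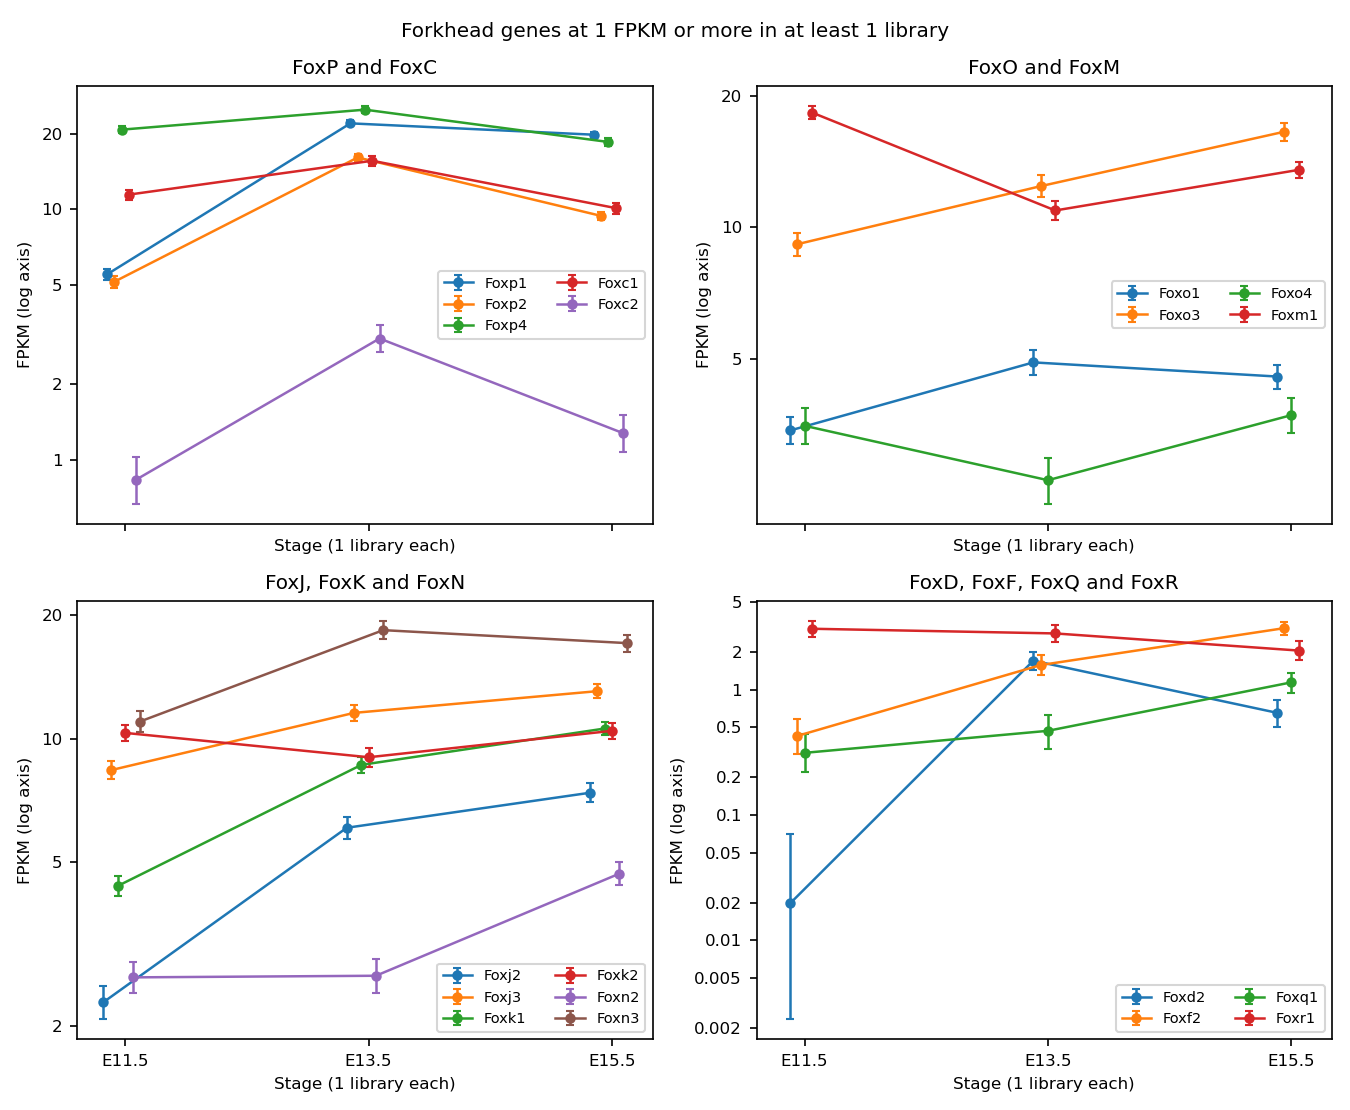
FPKM on a log axis at each stage for the 19 forkhead genes that reached 1 FPKM, in 4 panels by subfamily. Points are the single library of each stage, offset sideways for legibility, and bars are approximate 95% Poisson counting intervals. Foxp1, Foxp2 and Foxc2 stand higher at E13.5 than at E11.5, and Foxm1 lower.

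The order of levels changed between stages. At E11.5 the highest members were Foxp4 at 20.8 FPKM, Foxm1 at 18.3 and Foxc1 at 11.4, and the intervals of Foxc1, Foxn3 (11.0) and Foxk2 (10.3) overlapped from one to the next. At E13.5 they were Foxp4 at 24.97, Foxp1 at 22.0 and Foxn3 at 18.4, each apart from the next by more than counting error. At E15.5 Foxp1 at 19.8 stood above Foxp4 at 18.6, Foxn3 at 17.1 and Foxo3 at 16.5, and the intervals of these last 3 overlapped from one to the next. Foxp1 thus went from the eighth place to the second, and at E15.5 to the first.

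Comparing E13.5 with E11.5 asks how the family differed across the earlier step. Of 17 members with a mean of at least 1 FPKM, 4 (23.5%) were at least 2-fold higher on the log2(FPKM + 1) scale and 0 were 2-fold lower. Among all 10938 genes compared, 6.00% were at least 2-fold higher and 1.02% lower. The 4 genes were Foxp1, Foxp2, Foxc2 and Foxj2. Foxc2, at 0.834 FPKM at E11.5 and 3.05 at E13.5, passed the filter on the mean only through the later libraries, where it was higher. The same filter was applied to all genes compared. The median log2 change of the 17 was 0.42 against 0.07 for all genes compared, and 13 were above 0, as were 57.4% of all genes. With no filter on the mean, the median over all 44 members was 0.01 and that of all genes 0. The member just inside the 2-fold limit was Foxj2 at 1.11, and just outside it were Foxf2 at 0.85 and Foxk1 at 0.84. Foxf2 passed the limit, at 1.66, with a pseudocount of 0.1.

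From E13.5 to E15.5, the later step, 0 of 17 members were 2-fold higher or lower. The background was 3.58% of genes higher and 0.713% lower among 10934, so 0 of 17 is a share near the background. The median was 0.16 against 0.04 for all genes, with 9 members above 0 and 8 below. The log2 differences ran from -0.83 for Foxc2 to 0.67 for Foxf2. With a pseudocount of 0.1, Foxc2 was past the 2-fold limit at -1.19. Of the calls among all genes, 83.4% were higher, against 58.3% with each library rescaled to a sum of 1000000 and 67.1% with each rescaled to the mean of the 3 sums. The direction of small differences at this step moved with the scaling: the median of all genes was -0.13 when each library was rescaled to the mean of the 3 sums, and Foxj3 went from 0.16 to -0.03.

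Across both steps, from E11.5 to E15.5, 4 of 17 members were at least 2-fold higher and 0 lower, where 12.6% of 10939 genes were higher and 2.14% lower. Of the calls among all genes, 85.5% were higher, against 71.7% with each library rescaled to a sum of 1000000. The 4 members were Foxp1 at a log2 change of 1.68, Foxf2 at 1.52, Foxj2 at 1.35 and Foxk1 at 1.11. Foxf2, at 0.427 FPKM at E11.5 and 3.09 at E15.5, passed the filter on the mean only through the later libraries, where it was higher. Foxk1 stood at 0.96 when libraries were rescaled to the mean of their sums. The 3 comparisons share libraries, so their values are not independent.

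**Figure D2:**
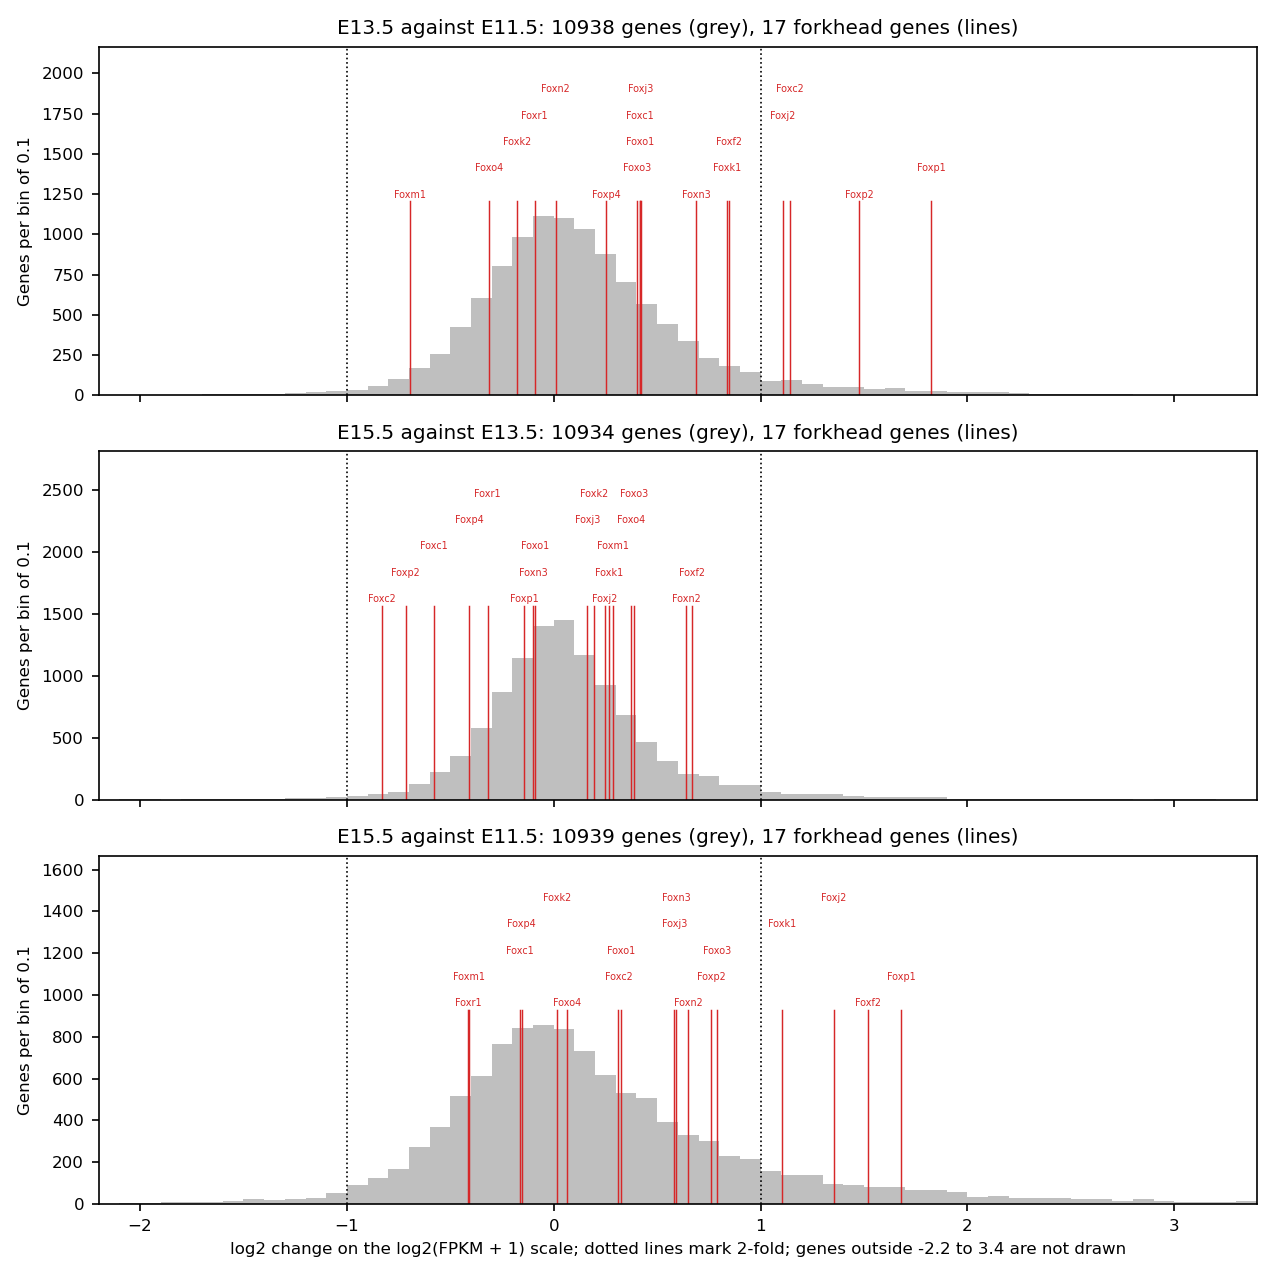
Distribution of log2 changes on the log2(FPKM + 1) scale for all genes compared (grey bars, genes per bin of 0.1) with the 17 compared forkhead genes as labelled red lines, in 3 panels, 1 per comparison. Dotted lines mark 2-fold. In the middle panel no forkhead line lies beyond them, and in the other panels 4 lie above.

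FoxP genes made up the largest subfamily by level. Their summed FPKM was 31.5, 63.2 and 47.9 in stage order, which was 25.8%, 35.5% and 28.1% of all forkhead FPKM. With the transcript of highest mean in place of the sum per gene, these shares were 17.1%, 26.3% and 20.5%, the first just above the 16.7% of FoxM. Levels of the other main subfamilies were lower: FoxC went from 12.3 to 18.7 and 11.4, FoxN from 13.6 to 21.0 and 21.8, FoxO from 16.3 to 20.2 and 25.3, FoxK from 14.7 to 17.7 and 21.0, and FoxJ from 10.7 to 17.8 and 20.7. Over all 44 members the sum was 122, 178 and 171 FPKM.

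**Figure D3:**
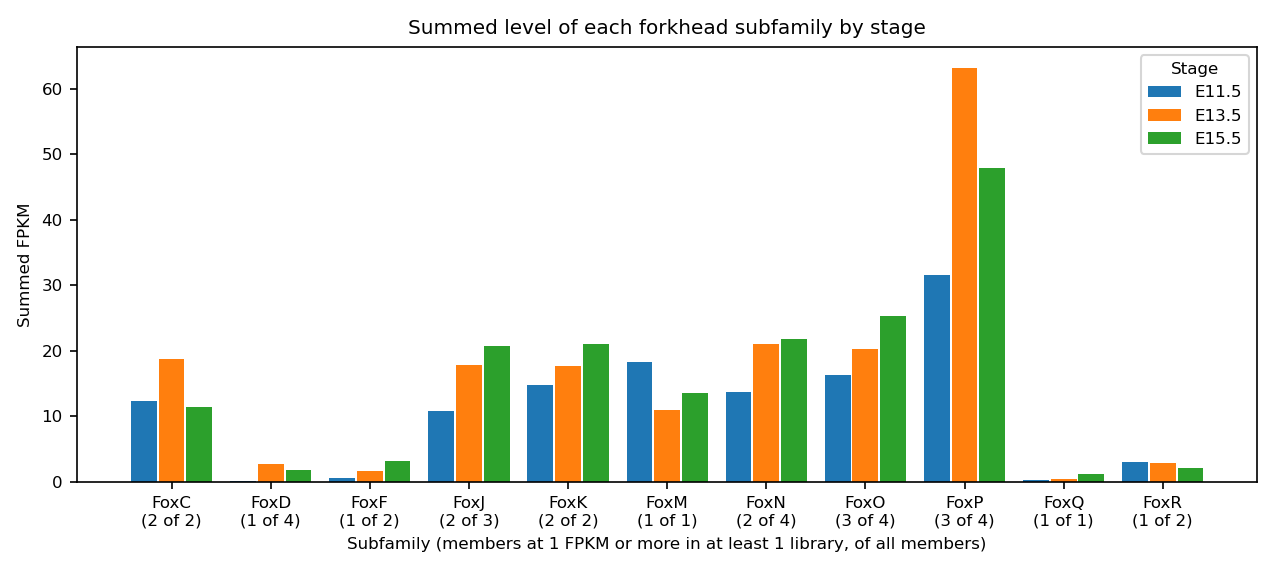
Summed FPKM of the 11 forkhead subfamilies with a detected member, by stage (1 library each). Labels give the members at 1 FPKM or more in at least 1 library out of all members. FoxP bars are the tallest at every stage and peak at 63.2 at E13.5.

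Foxp1, a repressor known from motor neurons, heart and lymphocytes, lies on chromosome 6 (mm9, 98875336 to 99385339) and was in stage order at 5.50 (5.22 to 5.78), 22.0 (21.4 to 22.6) and 19.8 FPKM (19.3 to 20.4). It was low at the first stage and high at both later ones. The linear ratio of E13.5 to E11.5 was 4.01 (3.78 to 4.25), and that of E15.5 to E13.5 was 0.901 (0.866 to 0.937). Foxp2, the gene known for its role in speech and in lung development, lies on the same chromosome (14851349 to 15391977). It was at 5.14 FPKM (4.87 to 5.42), 16.1 (15.6 to 16.6) and 9.41 (9.04 to 9.79), highest at the middle stage, with ratios of 3.13 (2.94 to 3.34) for the first step and 0.585 (0.555 to 0.616) for the second. Foxp4, which can pair with both, was at 20.8, 24.97 and 18.6 FPKM and never past 2-fold. At E11.5 Foxp4 therefore exceeded the sum of Foxp1 and Foxp2, and at the later stages Foxp1 alone was near its level. Foxp3, the factor of regulatory T cells, was at 0.0899, 0.0873 and 0.0738 FPKM, and its row overlaps Ccdc22 by 1435 bases. In the leukocyte list, Cd3e was listed at 0 in both earlier libraries and at 0.0205 FPKM at E15.5. Il2ra of the same list was at 0.172, 0.241 and 0.155. The source of the Foxp3 values was not tested.

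Foxp1 has 3 transcripts in the tables, and they differed in course. NM_001197322, which begins inside the gene (mm9 row 98875336 to 98978292), was at 2.28, 14.5 and 12.0 FPKM. NM_053202, which begins at the far end of the gene (to 99385339), was at 3.22, 7.57 and 7.80 FPKM. NM_001197321 was estimated at about 0 reads in every library. The internal-start transcript thus made 41.5%, 65.6% and 60.7% of the Foxp1 sum in stage order. Its linear ratio of E13.5 to E11.5 was 6.34, against 2.35 for NM_053202. On the log2(FPKM + 1) scale these were 2.24 and 1.02, the latter at 0.99 with size factors. The shares rest on an estimate that divides shared reads: in the matched GENCODE transcripts, 4.97% of the windows of 36 bases of NM_001197322, 4.71% of those of NM_053202 and 2.73% of those of NM_001197321 were of their own. The GENCODE match of NM_001197322 is 2468 bases long, against 6632 in the tables. The coding length without the stop codon is 1728 bases in NM_001197322, 2115 in NM_053202 and 2019 in NM_001197321, and the search found a recognition helix stretch in all 3.

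The stretches before the starts of NM_001197322 and of NM_001197321, the latter with almost no reads, are shown because they are the Foxp1 entries that lie at the start of a transcript in the tables. Both are the 250 bases upstream of a RefSeq start (GRCm38.p6, minus strand, printed along the gene's own direction), with every CG dinucleotide in capitals. The stretch beside NM_001197322 is chr6:99028299-99028548, and its start lies 40 bases from the first base of the GENCODE match. The stretch of NM_001197321 is chr6:99266516-99266765, and its start is the first base of the match.
Foxp1 internal start: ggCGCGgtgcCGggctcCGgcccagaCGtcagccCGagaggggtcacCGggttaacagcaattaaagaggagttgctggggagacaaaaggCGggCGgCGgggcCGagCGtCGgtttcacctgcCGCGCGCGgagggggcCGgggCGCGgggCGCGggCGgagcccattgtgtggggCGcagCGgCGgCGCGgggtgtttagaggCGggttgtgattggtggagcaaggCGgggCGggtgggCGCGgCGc
Foxp1 start of NM_001197321: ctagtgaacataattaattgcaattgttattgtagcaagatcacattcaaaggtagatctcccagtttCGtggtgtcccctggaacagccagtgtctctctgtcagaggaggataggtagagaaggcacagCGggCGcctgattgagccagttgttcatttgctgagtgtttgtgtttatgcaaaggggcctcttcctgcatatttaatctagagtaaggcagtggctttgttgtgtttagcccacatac
The stretch at the internal start had 34 CG dinucleotides, more than 96.5% of 32851 RefSeq promoters of the same length, whose median was 6. The stretch of NM_001197321 had 3. The entry nearest to NM_053202, at 85648 bases from its first base, had 11. RefSeq promoter entries were found for 28 of the 44 members, 33 entries in all. The forkhead motif TGTTTAC, on either strand, was in 1 of these entries and in 3.17% of all promoters, and it was in neither stretch printed here.

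**Figure D4:**
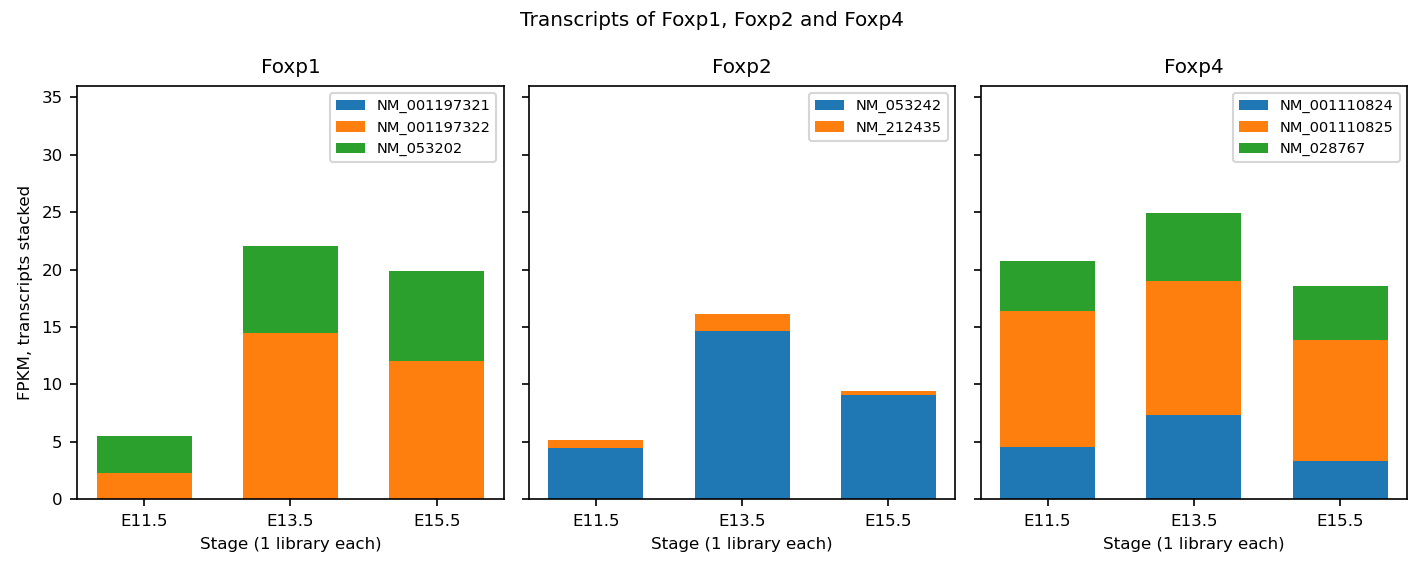
FPKM of each RefSeq transcript of Foxp1, Foxp2 and Foxp4, stacked, at each stage (1 library each). For Foxp1 the orange part, NM_001197322, is 2.28 FPKM at E11.5 and 14.5 at E13.5, while NM_001197321 is too small to see.

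The Foxp2 sum was mostly assigned to 1 transcript. NM_053242 held 86.8%, 91.0% and 96.4% of its sum, and NM_212435, which begins farther inside the gene, was at 0.679, 1.45 and 0.340 FPKM. The coding length is 2142 bases in both. Foxp4 has 3 rows of nearly equal length (3986, 3989 and 4025 bases). NM_001110825 was at 11.9, 11.7 and 10.5 FPKM and was the highest of them in each library. But 0 of its 3163 windows were of its own, so its split from the other rows has little support in the matched sequence. The GENCODE match of NM_001110825 is 3198 bases long, against 3989 in the tables, so part of this row was not searched. Using this row alone in place of the sum, Foxp4 changed by -0.02 between E11.5 and E13.5 in place of 0.25.

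FoxC factors act in mesenchyme, where Foxc1 is needed for skull and eye and Foxc2 for the axial skeleton and lymphatic vessels. Foxc1 was at 11.4, 15.6 and 10.1 FPKM in stage order, with linear ratios of 1.36 (1.28 to 1.46) and 0.647 (0.606 to 0.692). Foxc2 was far lower, at 0.834 (0.667 to 1.02), 3.05 (2.70 to 3.44) and 1.28 FPKM (1.07 to 1.51). Both genes were highest in the E13.5 library. The first ratio for Foxc2 was 3.66 (2.87 to 4.70) and the second 0.419 (0.338 to 0.518). Foxf2, a gene of gut, palate and vessel-wall mesenchyme, was instead highest at E15.5, at 0.427 (0.307 to 0.585), 1.57 (1.30 to 1.88) and 3.09 FPKM (2.73 to 3.46), a ratio of 7.23 (5.18 to 10.3) between the outer stages. Foxc2 and Foxf2 entered the comparison through the libraries in which they were high.

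Several of these genes sit in clusters. On chromosome 13 (mm9), Foxq1, Foxf2 and Foxc1 follow each other with gaps of 64.8 and 175.2 kb. Foxq1 was at 0.313, 0.469 and 1.14 FPKM, so that Foxq1 and Foxf2 were highest at E15.5 and their neighbour Foxc1 at E13.5. On chromosome 8, Foxf1a, Foxc2 and Foxl1 lie within 123608374 to 123654544. There Foxc2 was detected while Foxf1a was at 0.168, 0.0974 and 0.0353 FPKM and Foxl1 at 0.109, 0.179 and 0.0424. On chromosome 4, Foxd2 and Foxe3 are 16.2 kb apart, Foxe3 being listed at 0 throughout. Foxd2 was at 0.0197 FPKM at E11.5, about 2 estimated reads, and at 1.70 (1.43 to 2.0) and 0.654 (0.506 to 0.832) later. Its ratio of E13.5 to E11.5 was 86.3 with a counting interval of 23.5 to 719, and its mean was under the limit for the comparison. Its relative Foxd1, known from kidney stroma, was at 0, 0.697 and 0.495 FPKM.

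Markers of vessels were, like Foxf2, higher at each later stage in sum. That course was not particular to them. The sums of the tendon (408, 793 and 2142 FPKM), cartilage, fibroblast, muscle, Schwann cell and neural crest, neuronal and epidermal lists were also higher at each later stage. Those of the leukocyte and blood lists were not. The course of the Schwann cell and neural crest sum rested mainly on Ngfr, and that of the neuronal sum on Nefl and Nefm. The 8 pericyte and smooth muscle genes summed to 15.8, 30.1 and 51.2 FPKM, with Cspg4 at 1.32, 5.93 and 12.4, Kcnj8 at 0, 0.450 and 3.55 and Abcc9 at 0.105, 0.925 and 4.95, while Myh11 stayed under 0.1. Notch3, the most abundant of them at E11.5, went the other way, at 11.7, 8.498 and 8.93. The 12 endothelial genes summed to 2.76, 11.3 and 15.9 FPKM, of which Erg, also a gene of joints, made 0.708, 7.65 and 5.03. Vwf was at or below 0.0636 and Cldn5 at or below 0.0444 in every library. The part of these cells in the Foxf2 and Foxc2 values was not tested.

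The Hedgehog pathway is a known input of FoxF and FoxC genes. Of its 14 listed genes, 10 could be compared, and at E13.5 against E11.5, 1 (against 6.00% of all genes) was at least 2-fold higher and 0 lower, with a median of 0.54. It was Gas1, a co-receptor gene, at 19.98, 57.2 and 61.2 FPKM. From E13.5 to E15.5 none of the 10 passed 2-fold in either direction (median 0.05), where 3.58% of all genes were higher and 0.713% lower. Between the outer stages 3 of the 10 were higher, where 12.6% of all genes were: Gas1, Cdon (13.3 to 36.3 FPKM) and Boc (9.89 to 22.2). Cdon and Boc also encode co-receptors. The pathway's readout genes Ptch1 and Gli1 were at 18.5, 25.6 and 17.2 and at 7.14, 11.4 and 10.3 FPKM, and the ligand gene Shh was at 0.437 FPKM at E11.5 and listed at 0 later. Ptch1 and Gli1, like Foxc1 and Foxc2, were highest in the E13.5 library.

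FoxO factors carry the response to falling growth-factor signalling. Foxo3 was the highest of them at 9.14 (8.60 to 9.72), 12.4 (11.7 to 13.2) and 16.5 FPKM (15.8 to 17.3), higher at each stage by more than counting error. Its ratio between the outer stages was 1.81 (1.68 to 1.95), short of 2-fold. Foxo1 was at 3.42, 4.90 and 4.55 FPKM and Foxo4 at 3.51, 2.63 and 3.71. Foxo4 was lowest in the E13.5 library, and its outer ratio of 1.06 had an interval that included 1 (0.925 to 1.21). On the log2(FPKM + 1) scale that difference was 0.06, and -0.08 with each library rescaled to a sum of 1000000. Foxo6 stayed under 1 FPKM, at 0.268, 0.259 and 0.523. The list of insulin, PI3K and AKT genes and known FoxO targets has 32 genes, of which 29 could be compared. In the first step 1 was at least 2-fold higher and 0 lower (median 0.19), where 6.00% of all genes were higher and 1.02% lower (median 0.07). In the second 0 passed either way (median 0.01), where 3.58% of all genes were higher and 0.713% lower (median 0.04). Between the outer stages 3 of 29 were higher and 0 lower (median 0.29). That is a share near the background, in which 12.6% of all genes were higher and 2.14% lower (median 0.07). The first was Pik3r1, the regulatory subunit gene of PI3K, at 1.31, 5.40 and 8.57 FPKM. The others were Bcl6, a repressor gene, at 0.193, 1.30 and 3.33, and Txnip, a regulator of glucose uptake, at 6.15, 10.2 and 15.2. The muscle atrophy targets Fbxo32 and Trim63 did not exceed 0.270 FPKM.

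FoxM1 activates genes of the G2 and M phases of the cell cycle. Foxm1 was at 18.3 (17.7 to 19.0), 10.9 (10.4 to 11.48) and 13.53 FPKM (12.98 to 14.1). It was the member with the lowest log2 change in the first step, at -0.70, a linear ratio of 0.596 (0.561 to 0.634). The second step gave a ratio of 1.24 (1.16 to 1.32). All 22 listed targets could be compared, and none passed 2-fold in either step, where 1.02% and 0.713% of all genes were lower. Of these 20 were below 0 in the first step and 11 in the second. Their median was -0.60 for E13.5 against E11.5, where all genes stood at 0.07, and 0.01 for E15.5 against E13.5. Among them Plk1, a mitotic kinase gene, was at 28.0, 14.7 and 15.7 FPKM, Cdc20, an activator of the anaphase-promoting complex, at 17.5, 8.82 and 10.1, and Ccnb1, the cyclin B1 gene, at 30.3, 17.8 and 17.6. Cdc25b and Skp2 were above their E11.5 level in both later libraries, at 2.86, 3.003 and 3.92 and at 24.8, 25.8 and 27.0. Between the outer stages 2 of the 22 targets, and 2.14% of all genes, were at least 2-fold lower, Bub1 (14.2 to 6.05 FPKM) and Aurka (12.7 to 5.78). Foxm1 and 20 of the 22 were lower at E15.5 than at E11.5. The Foxm1 row overlaps 4933413G19Rik by 377 bases, a gene at or below 0.143 FPKM.

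**Figure D5:**
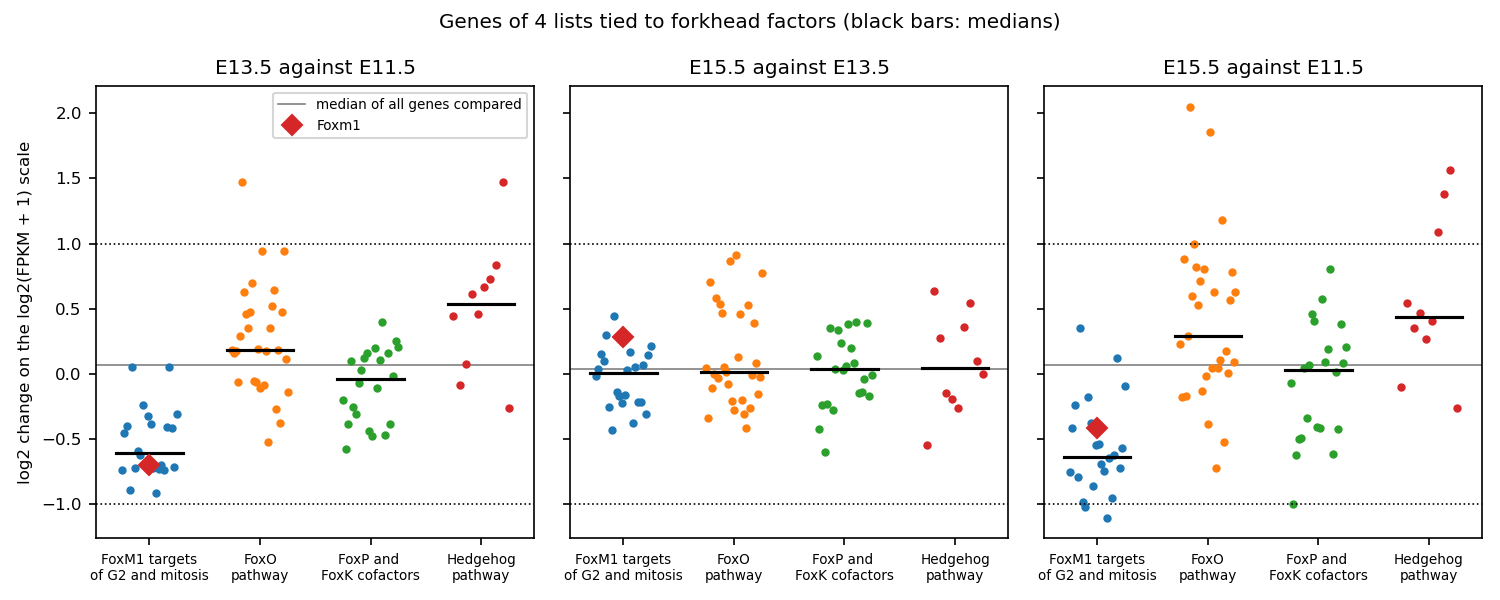
log2 change of each compared gene in 4 lists tied to forkhead factors, in 3 panels, 1 per comparison. Points are genes, black bars are list medians, the grey line is the median of all genes compared and the red diamond is Foxm1. In the first panel the FoxM1 targets have a median of -0.60 with Foxm1 at -0.70, and in the middle panel the target median is 0.01.

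FoxK factors bind DNA beside a forkhead-associated domain and are known to repress autophagy genes. Foxk1 was at 4.39 (4.15 to 4.63), 8.64 (8.27 to 9.02) and 10.6 FPKM (10.2 to 11.0), whereas its relative Foxk2 was at 10.3, 9.02 and 10.5. Foxk2 was above Foxk1 at E11.5 by more than counting error, and at both later stages their intervals overlapped. The outer ratio was 2.41 (2.26 to 2.58) for Foxk1 and 1.01 (0.951 to 1.08) for Foxk2. The log2 difference of Foxk2 was 0.02, and -0.15 with each library rescaled to a sum of 1000000. None of 22 listed cofactor genes of FoxP and FoxK factors passed 2-fold in any of the 3 comparisons, and their medians were -0.04, 0.04 and 0.03. Of all genes, 6.00%, 3.58% and 12.6% were higher in the 3 comparisons and 1.02%, 0.713% and 2.14% lower. Ctbp2, a corepressor gene, was at 11.4, 7.33 and 5.20 FPKM, the lowest log2 change among them between the outer stages, at -0.9998 and just short of the limit.

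FoxJ and FoxN genes were detected in part. Foxj2 was at 2.28 FPKM (2.08 to 2.50), 6.07 (5.70 to 6.46) and 7.39 (7.01 to 7.78), with a first ratio of 2.66 (2.38 to 2.98). Foxj3 was at 8.38, 11.6 and 13.1, higher at each stage apart from the second step under the rescaling given above. Foxj1, the factor of motile cilia, did not exceed 0.220 FPKM. Foxn3, a repressor tied to the cell cycle checkpoint, was at 11.0, 18.4 and 17.1, with a first ratio of 1.67 (1.54 to 1.8). Foxn2 was at 2.63 and 2.65, a log2 difference of 0.01 that was -0.02 with size factors, before 4.69 at E15.5, a second ratio of 1.77 (1.58 to 1.99). Foxr1, the detected member without the helix pattern, was at 3.06 (2.64 to 3.51), 2.80 (2.38 to 3.30) and 2.05 FPKM (1.71 to 2.42), and its neighbouring intervals overlapped. The interval of its first ratio, 0.918 (0.738 to 1.14), included 1, but that of its second, 0.730 (0.573 to 0.929), did not. The outer ratio of Foxr1 was 0.670 (0.533 to 0.839).

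Among the 7 members listed at 0 in all libraries were Foxe1, a thyroid factor, Foxe3, a lens factor, Foxh1, a partner of Smad proteins in Nodal signalling, Foxi2, Foxl2 of the ovary and Foxn1 of the thymus and hair. A count of 0 allows levels of up to 0.0191 to 0.107 FPKM for them, taking 3 estimated reads and the length of each transcript. The endoderm pioneer genes Foxa1, Foxa2 and Foxa3 did not exceed 0.242 FPKM. Foxd3, a neural crest gene, was listed at 0 in both earlier libraries and at 0.0387 at E15.5. The rest under 1 FPKM were Foxb1, Foxb2, Foxd1, Foxd4, Foxf1a, Foxi1, Foxi3, Foxj1, Foxl1, Foxn4, Foxo6, Foxp3, Foxr2 and Foxs1. Of these Foxd4 was at 0.0350, 0.236 and 0.615 FPKM and Foxs1 at 0.102, 0.110 and 0.235, both highest at E15.5 and too low for a fold to be read.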

How the data were processed

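RNA of sorted ScxGFP-positive hindlimb cells was measured in 3 libraries, 1 per stage, grouped by the age in the labels. The kit was NuGEN's Ovation RNA-Seq v2, per the labels' protocols, and it amplifies cDNA, whose noise is outside the intervals given. The authors deposited FPKM, 1 value per RefSeq transcript, and a coverage signal that is a constant multiple of FPKM in each library, with a status per estimate, per the file headers. The submitters' processing notes name Bowtie 0.12.7, TopHat 1.4.1 and mm9. Strand setting and annotation release: not given in the sources used here. Reads of overlapping genes therefore may be shared between them.

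FPKM was summed per gene symbol with Python 3.11.15 and pandas 2.3.3. Genes of status OK whose mean reached 1 FPKM were compared on the log2(FPKM + 1) scale, where a pseudocount of 1 understates changes of low genes, and 2-fold was the limit for a call. The calling step was checked on simulated data. Reads were estimated by taking 41 covered bases as 1 read, the commonest value between 30 and 70 among single-transcript genes. Left ends in the tables count from 0, as in 3284 rows whose length equals the difference of their ends, and are printed here 1-based. Members, gene lists and the naming rule (every member at 1 FPKM or more in at least 1 library, up to 4 genes of each list past 2-fold, and genes whose values stand beside a forkhead result) were chosen with earlier results of these data known. Other list genes were picked after their values were seen. Alternatives changed the pseudocount, the filter, the scaling, the value per gene and the status rule. Some genes and sequences of the family and lists are not reported here.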

Additional observations from a re-analysis of the deposited data

How the results depend on the processing

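No paired analysis was possible because each stage has 1 library, and for the same reason leaving out a library was not run. Among values of the 17 compared members under the alternatives, 385 kept their side of the 2-fold limit, 4 crossed it outward (Foxf2 in the first step and Foxc2 in the second), 1 crossed it inward (Foxk1 at 0.96) and 0 called values reversed. Of the 385, 9 changed sign, all of them values short of 2-fold, in Foxj3, Foxk2, Foxn2, Foxo4 and Foxp4. With a pseudocount of 0.1, 1154 of all genes were higher and 191 lower in the first step, 189 were lower in the second, 431 were lower between the outer stages, and 1 forkhead gene was lower in the second step (Foxc2). With a mean of at least 5 FPKM, 381 genes were higher and 43 lower in the first step, 214 and 42 in the second, and 712 and 124 between the outer stages. With each library rescaled to a sum of 1000000, which multiplies FPKM and so lets more low genes through the filter, 22 forkhead genes were compared in place of 17. The counts among all genes were then 1748 higher and 350 lower of 13967 in the first step and 720 and 515 of 13965 in the second. Between the outer stages they were 2310 and 913 of 13968. Of the 22 forkhead genes, 8 were higher in the first step, 2 lower in the second and 8 higher between the outer stages. When all 3 libraries were set to their common mean sum, which was chosen after seeing the data, 139 genes were lower in the second step and 362 between the outer stages. Depth limits members under 1 FPKM.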

Other observations

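Gene names that begin with Fox but lie outside the rule were 3. Foxred1, a mitochondrial assembly factor gene unrelated to the forkhead domain, was at 4.12, 3.39 and 3.20 FPKM in stage order, Foxred2 was at 1.47, 1.66 and 1.81, and Foxl2os, a noncoding RNA gene beside Foxl2, was at 0.0200, 0.0140 and 0.0258. At the level of the recognition helix stretch, Foxo3 and Foxo4 differed at 1 of 30 bases.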
